A study of Mus musculus with 16 samples.

Results

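The genes described here encode lysosomal hydrolases, the proteins that activate them, membrane proteins of the lysosome, the transcription factor TFEB and progranulin. They were chosen by symbol, 36 in all. Of these, 35 had at least 1 probe on the array, 54 probes in total among 25697, and Npc1 was not analysed here. A probe was tested where it stood above the array's background on at least 2 of 16 arrays, which 52 of the 54 probes and all 35 genes did, among 16344 tested probes for 10986 named genes. Ctso probe 2 and Asah1 probe 3 stood above background on no array and were not tested. Where a gene had several probes, as 10 did, they are numbered from the brightest.

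RNA came from CD11b-selected cells of adult mouse brain, labelled microglia, after removal of myelin. In SIRT1F/F mice the Sirt1 gene is floxed. LysM-Cre/SIRT1F/F mice, here LysM-Cre, add a Cre driven from the lysozyme gene Lyz2, which acts in myeloid cells in general and not in microglia alone. Young and old mice of either genotype gave 3 arrays per group. A further 2 arrays each carry the labels TAU and TAU/LysM, for which no age is given and the floxed genotype is not repeated. The background of all groups is a mix of BL6 and 129/Sv. The stated question concerns altered microglial SIRT1, a NAD-dependent deacetylase, with age and in dementia models. The labels do not say that replicates are separate animals, so p-values measure only how these samples spread, and that spread may be technical.

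Lysosomes take up material from phagocytosis, endocytosis and autophagy and break it down with acid hydrolases, most of which reach them bound to mannose 6-phosphate receptors. TFEB raises the transcription of many of these genes through an E-box element in their promoters, and it is held in the cytosol when mTORC1 is active at the lysosomal surface. Microglia are professional phagocytes rich in lysosomes, and inherited loss of many of these enzymes causes storage diseases of the brain.

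Promoter windows from RefSeq (GRCm38.p6), each 300 bases around an annotated start site, were found for 33 of the member genes, 39 windows in all. The palindrome CACGTG, the core of that E-box, was in 11 of the 39 windows (28.2%) and in 7.15% of all 32851 windows. The 7-base form TCACGTG, searched on both strands and contained in the next form, was in 28.2% of the member windows and 3.765% of all. TCACGTGA was in 10.3% of the member windows (Gla, Mcoln1, Cln3 and Ctsa) and in 0.974% of all. A match is only a description of these letters. The genes with CACGTG were Lamp1, Gla, Gaa, Glb1, Mcoln1, Naglu, Sgsh, Cln3, Ctsa, Arsa and Lgmn. Of the 8 genes called in any comparison, Glb1, Naglu and Ctsa had it and the other 5, which were Gusb, Npc2, Ctsc, Tfeb and Pla2g15, did not, Ctsa in 1 of its 2 windows. The windows of Glb1 (chr9:114400828-114401127, plus strand), Naglu (chr11:101069844-101070143, plus), Ctsc (chr7:88277835-88278134, plus) and Gusb (chr5:130003000-130003299, minus) are shown because the first 3 genes were called in more than 1 comparison and all 3 tested probes of Gusb were called in 1. They read 5′ to 3′ on the gene's strand, with TCACGTG in capitals. Its core CACGTG starts at position -48 from the annotated start in Glb1 and at -73 in Naglu, and Ctsc and Gusb have no match.
Glb1: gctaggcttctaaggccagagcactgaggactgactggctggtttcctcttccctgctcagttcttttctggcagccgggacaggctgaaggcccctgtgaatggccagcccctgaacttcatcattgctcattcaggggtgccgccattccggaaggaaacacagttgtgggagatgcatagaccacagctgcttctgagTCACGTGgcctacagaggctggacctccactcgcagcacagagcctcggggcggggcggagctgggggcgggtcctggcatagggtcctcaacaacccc
Naglu: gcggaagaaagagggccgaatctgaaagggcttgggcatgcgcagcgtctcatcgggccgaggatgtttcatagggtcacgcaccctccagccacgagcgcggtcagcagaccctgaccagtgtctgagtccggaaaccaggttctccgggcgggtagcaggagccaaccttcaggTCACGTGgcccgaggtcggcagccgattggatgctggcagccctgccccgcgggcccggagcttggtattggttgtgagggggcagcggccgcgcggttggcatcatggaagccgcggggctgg
Ctsc: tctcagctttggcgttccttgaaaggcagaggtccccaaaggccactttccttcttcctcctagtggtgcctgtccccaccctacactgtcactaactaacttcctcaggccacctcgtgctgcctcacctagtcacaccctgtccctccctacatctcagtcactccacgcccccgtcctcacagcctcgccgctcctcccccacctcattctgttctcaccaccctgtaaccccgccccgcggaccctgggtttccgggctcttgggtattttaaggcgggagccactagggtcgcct
Gusb: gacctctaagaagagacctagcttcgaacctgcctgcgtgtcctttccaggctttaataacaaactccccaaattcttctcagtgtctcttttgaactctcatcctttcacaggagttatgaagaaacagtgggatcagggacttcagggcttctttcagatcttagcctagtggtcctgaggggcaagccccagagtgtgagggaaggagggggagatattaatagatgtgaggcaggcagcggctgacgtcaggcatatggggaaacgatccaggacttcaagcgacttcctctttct

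Levels are log2 intensities after background correction and quantile normalization across all arrays, and a level is compared only with the same probe on other arrays. Median intensity per array was 202.9 to 283.6, and 54.9% to 57.5% of all probes stood above background. Of the microglial markers, 10 of 12 listed genes had a probe, all 10 stood above background in every group, and their mean level was 12.41 to 13.05 on the 16 arrays. Markers of other cells were detected in every group too, so this does not show that the samples held microglia alone. All 12 neutrophil genes (mean level 10.08 to 11.96) and 7 of 8 genes of border-associated macrophages (10.90 to 11.92) stood above background in each group. Sirt1 lay at 9.48 to 10.21, and its LysM-Cre differences of 0.03, 0.07 and 0.05 in young, old and TAU samples were not called (limma adjusted p = 0.953, 0.945 and 0.928). Its position against the floxed exon is not known here, so this does not check the deletion. Sirt1 differed by -0.46 between TAU and young SIRT1F/F (limma adjusted p = 0.0445). On 5 arrays Xist or Eif2s3y was near background (young LysM-Cre 2 and 3, old SIRT1F/F 2 and 3, TAU/LysM 1), while the other 11 arrays carried both transcripts, so results are also given without those 5, the low-Xist/Eif2s3y arrays. Of their groups, leaving them out keeps only young LysM-Cre 1, old SIRT1F/F 1 and TAU/LysM 2. It removes no young SIRT1F/F, old LysM-Cre or TAU array. The number of arrays limits how precise any value is. Where 2 groups are said not to overlap, each holds only 2 or 3 arrays, and the share over all probes was not counted.

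The lysosomal genes were detected throughout, and 48 of the 54 probes stood above background on all 16 arrays. Among membrane proteins, Lamp1, an abundant glycoprotein that lines the lysosomal membrane, lay between 14.24 and 14.50. Lamp2, its relative with a part in chaperone-mediated autophagy, lay between 14.01 and 14.42 on probe 1 and between 12.24 and 13.04 on probe 4. Laptm5, a transmembrane protein of blood-lineage cells, lay between 15.28 and 15.41. Its intensity of 37801 to 45333, like those of Psap at 32964 to 39274 and Lgmn at 28784 to 40274, came near the brightest probe of an array (42456 to 49192), where differences may be compressed. Scarb2, the receptor that carries glucocerebrosidase to the lysosome, ranged from 10.31 to 10.98. Mcoln1, the calcium channel TRPML1, ranged from 8.73 to 9.09 and Cln3, a membrane protein lost in juvenile Batten disease, from 11.51 to 11.97. None of these 6 membrane protein genes was called in any comparison.

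Enzymes of sphingolipid breakdown lay in narrow ranges on most probes. Hexa, the alpha subunit of hexosaminidase A, lay between 13.64 and 14.02, and Gm2a, its activator for ganglioside GM2, between 13.28 and 13.68. Psap, the precursor of the saposins, lay between 15.03 and 15.24. Arsa, which removes sulfate from sulfatide, lay between 11.51 and 11.85. Neu1, a sialidase, lay between 12.09 and 12.54. Asah1, the acid ceramidase, lay between 14.22 and 14.70 on probe 1, while its probe 2 spread from 8.82 to 11.52. That spread was within groups as well: probe 2 read 9.75, 11.48 and 9.55 in young SIRT1F/F and 11.18, 11.50 and 9.92 in old LysM-Cre. Gla, alpha-galactosidase A, stood above background on 9 of 16 arrays, between 5.78 and 7.35.

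Of the other hydrolases, Man2b1, an alpha-mannosidase of glycoproteins, lay between 14.69 and 14.94, and Gaa, which digests glycogen, between 11.60 and 12.05. Grn, the precursor progranulin that supports lysosomal function, lay between 14.63 and 14.94. Among peptidases, Lgmn, an endopeptidase that cuts after asparagine, lay between 14.87 and 15.23 and Ctsh, an aminopeptidase, between 14.31 and 14.73. Tpp1, a tripeptidyl peptidase, lay between 11.82 and 12.27. Ctss, a cysteine protease that trims the MHC class II invariant chain, lay between 12.93 and 13.83. Ctso probe 1, for a less studied cathepsin, stood above background on 8 of 16 arrays. Of all these members, including those described next, 27 genes were called in none of the 13 comparisons and 8 in at least 1.

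**Figure D1:**
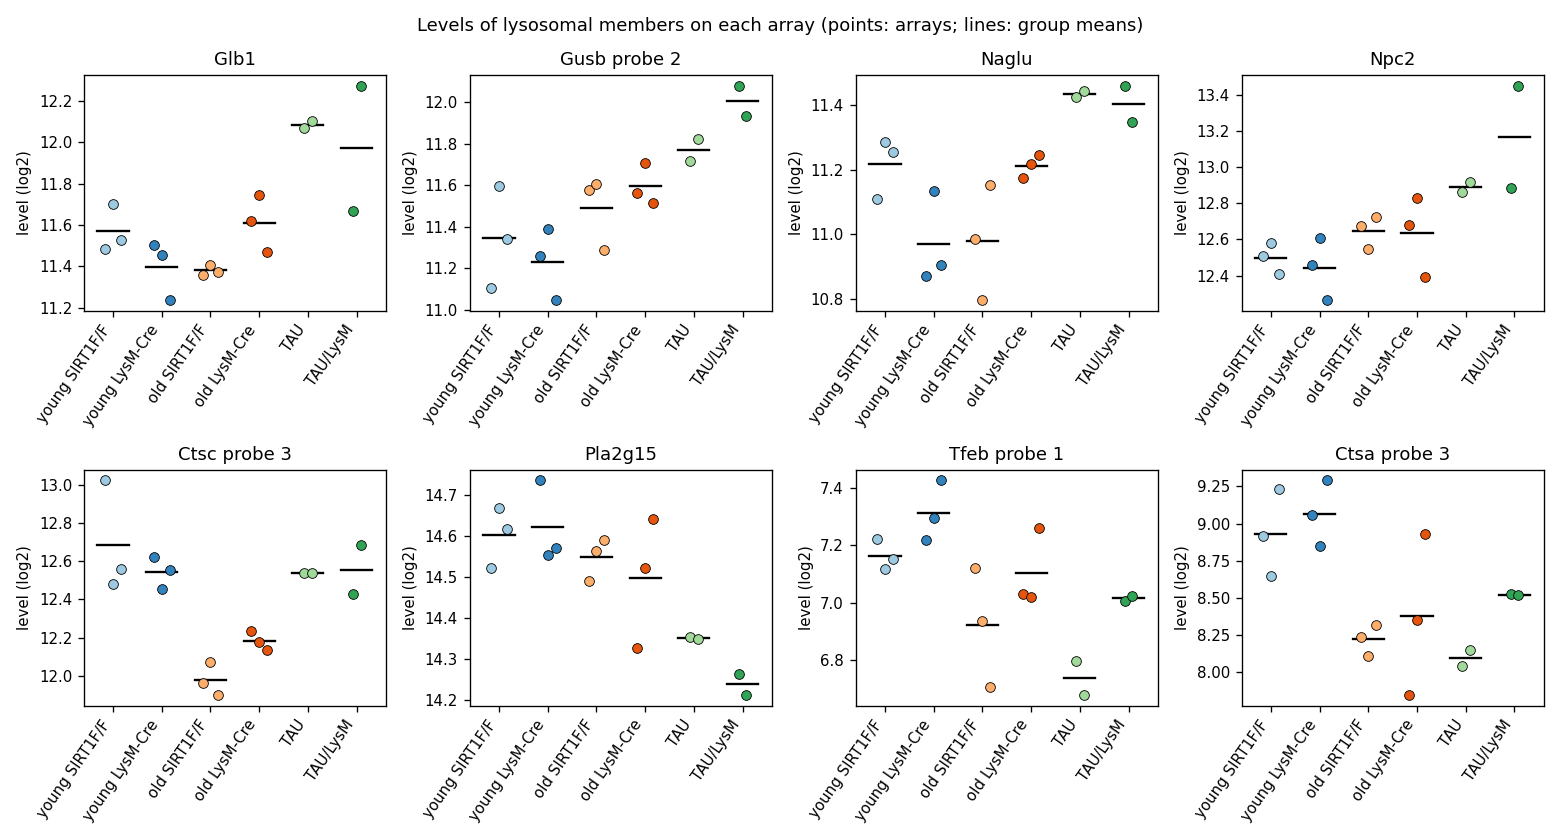
Level (log2, vertical axis) of 8 lysosomal probes on each array, by group (horizontal axis): points are arrays and lines are group means over 3 or 2 arrays. Glb1 and Naglu lay highest in TAU and TAU/LysM by group mean, Ctsc probe 3 lowest in both old groups, and Pla2g15 lowest in TAU/LysM.

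TAU samples had more beta-galactosidase transcript, and less of a Tfeb and a Ctsa probe, than young SIRT1F/F samples. Glb1, which cleaves galactose from ganglioside GM1 and keratan sulfate, read 11.49, 11.70 and 11.53 in young SIRT1F/F and 12.07 and 12.10 in TAU. Both TAU arrays lay above all 3 young ones, and the probe rose by 0.52 ± 0.15 (SE, limma adjusted p = 0.0445), a fold of 1.43. With median scaling it differed by 0.27 (limma adjusted p = 0.257). Tfeb probe 1, for the master regulator of lysosomal genes, read 7.22, 7.12 and 7.15 in young SIRT1F/F and 6.79 and 6.68 in TAU. It fell by 0.43 ± 0.13 (limma adjusted p = 0.041) with no overlap, while Tfeb probe 2, above background on 3 of 16 arrays, differed by 0.08. The call of Tfeb probe 1 held in 4 of 17 alternatives and in 0 of 5 that left out 1 array, and its difference was -0.20 with the deposited log2 values (limma adjusted p = 0.0706). Ctsa, the protective protein that stabilises beta-galactosidase and sialidase, read 8.92, 8.65 and 9.23 on probe 3 in young SIRT1F/F and 8.04 and 8.15 in TAU, below all of them. This probe fell by 0.84 ± 0.24 (limma adjusted p = 0.0409), probe 4 differed by -0.62 (limma adjusted p = 0.0946), and probes 1 and 2 differed by 0.33 and 0.29, so the probes of Ctsa disagreed in sign.

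Next by p in this comparison were Gaa at 0.34 ± 0.10 (limma adjusted p = 0.051), Gusb probe 3 at 0.73 and Acp2, an acid phosphatase, at -0.38. In all, 1 member probe was called higher and 2 lower, and 12 of 52 had an unadjusted p under 0.05, against 11.9% of all probes called and 27.8% under the unadjusted limit. The median of the 52 differences was 0.08 and that of all probes -0.04, or -0.10 and -0.16 with median scaling in place of quantiles. Limma called 0, 6 and 0 member probes without young SIRT1F/F 1, 2 and 3. Leaving out TAU 1 or TAU 2 leaves a lone TAU array, which is assumed to vary like the other groups. Over the fits that left out 1 array, Glb1 differed by 0.47 to 0.58, Tfeb probe 1 by -0.49 to -0.37 and Ctsa probe 3 by -0.98 to -0.69. Limma called 1 member probe without the low-Xist/Eif2s3y arrays. None of those arrays is in these groups, so only the shared estimate of the spread changed.

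Markers of other cell types differed between these groups. Oligodendrocyte markers had a mean level of 9.75 to 10.08 in TAU and 7.71 to 8.18 in young SIRT1F/F, with 14 of 17 probes called higher, median 2.09. Choroid plexus markers had 10 of 11 probes called higher, median 2.20, and endothelial markers 5 of 10, median 1.17. Astrocyte markers had 6 of 12 called higher and mural markers 5 of 13, and B cell markers had 3 of 9 called lower. The microglial markers had a median of -0.21, with 4 of 14 probes called lower. Those were Tmem119 at -0.62 ± 0.10 (limma adjusted p = 0.00239), the transcription factor Sall1 at -0.77 and -0.59, and Siglech at -0.49. Their part in the lysosomal differences was not tested. In bulk RNA of this kind fewer cells of a type and less RNA per cell cannot be told apart.

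Set against old SIRT1F/F, the same TAU arrays had more transcript of Glb1, Ctsc and Naglu. Glb1 read 11.36, 11.41 and 11.37 in old SIRT1F/F, below both TAU arrays, and rose by 0.71 ± 0.15 (limma adjusted p = 0.0211). Naglu, an enzyme of heparan sulfate breakdown, read 10.99, 10.80 and 11.15 in old SIRT1F/F and 11.43 and 11.44 in TAU. It rose by 0.46 ± 0.12 (limma adjusted p = 0.0478), again without overlap. Ctsc, a dipeptidyl peptidase that activates serine proteases of granules, read 11.96, 12.07 and 11.90 on probe 3 in old SIRT1F/F and 12.54 on both TAU arrays. It rose by 0.56 ± 0.14 on this probe (limma adjusted p = 0.0453). Its probes 2 and 1 differed by 0.66 and 0.48 (limma adjusted p = 0.0538 and 0.0616). Gaa differed by 0.32 (limma adjusted p = 0.118). Ctso probe 1 was not well above background on either TAU array, so no size is given, and it was not called (limma adjusted p = 0.171).

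No member probe was called lower against old SIRT1F/F. With 3 called higher and 11 of 52 under an unadjusted p of 0.05, the shares over all probes were 3.99% and 17%. The median member difference was 0.08 against -0.02 over all probes, or 0.03 against -0.05 with median scaling. Without old SIRT1F/F 1, 2 and 3 limma called 0, 1 and 1 member probes. Leaving out TAU 1 or TAU 2, or the low-Xist/Eif2s3y arrays, leaves a lone array in 1 of the groups. Over the fits that left out 1 array, Glb1 differed by 0.69 to 0.72, Ctsc probe 3 by 0.52 to 0.61 and Naglu by 0.37 to 0.54. Where that array was of old SIRT1F/F, the calls of Glb1 and Ctsc probe 3 held in 0 of the fits and that of Naglu in at most 1. Oligodendrocyte and choroid plexus markers again had medians of 2.03 and 1.89, with 11 of 17 and 10 of 11 probes called higher, and the microglial list had a median of -0.25 with 4 of 14 called lower. The monocyte list had a median of -1.20 with 2 of 8 called lower, the neutrophil list -0.86 with 1 of 15 and the erythrocyte list -1.74 with 1 of 3. The part of these lists in the lysosomal differences was not tested. Both TAU comparisons share the TAU arrays.

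TAU/LysM samples gave the longest list of called lysosomal probes when set against young LysM-Cre. Beta-glucuronidase, which acts on several glycosaminoglycans and is encoded by Gusb, was higher on all 3 probes. On probe 2 it read 11.26, 11.39 and 11.05 in young LysM-Cre and 12.08 and 11.93 in TAU/LysM. All TAU/LysM values lay above the young ones, with a rise of 0.77 ± 0.15 (limma adjusted p = 0.00987), a fold of 1.71. Gusb probe 3 read 10.59, 10.86 and 10.29 against 11.71 and 11.46 and rose by 1.00 ± 0.25 (limma adjusted p = 0.0279). Probe 1, at 13.69, 13.65 and 13.48 against 13.89 and 14.00, rose by 0.34 ± 0.10 (limma adjusted p = 0.0496). The call of probe 1 held in 0 of the fits that left out 1 young LysM-Cre array. The 3 probes agreed in sign and differed in size.

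Npc2, the soluble sterol carrier that hands cholesterol to the membrane for export, read 12.46, 12.61 and 12.26 in young LysM-Cre and 12.88 and 13.45 in TAU/LysM. It rose by 0.72 ± 0.17 (limma adjusted p = 0.0208), and TAU/LysM 2 was the highest array of all 16. Glb1 read 11.50, 11.46 and 11.24 against 11.67 and 12.28 and rose by 0.58 ± 0.15 (limma adjusted p = 0.0402). TAU/LysM 2 was the higher array for both: without it Glb1 differed by 0.27 and Npc2 by 0.44 (limma adjusted p = 0.351 and 0.214), and without TAU/LysM 1 they differed by 0.88 and 1.01 (0.00811 and 0.00943). Naglu read 10.87, 11.13 and 10.90 against 11.46 and 11.35 and rose by 0.43 ± 0.12 (limma adjusted p = 0.0425), or by 0.27 with median scaling (limma adjusted p = 0.203). Pla2g15, a lysosomal phospholipase A2, was the called member that fell: 14.73, 14.55 and 14.57 in young LysM-Cre and 14.26 and 14.21 in TAU/LysM, a difference of -0.38 ± 0.11 (limma adjusted p = 0.0462). The Pla2g15 call held in 0 of the fits that left out 1 young LysM-Cre array.

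That made 6 member probes called higher and 1 lower, for 5 genes, and 16 of 52 with an unadjusted p under 0.05. Over all probes the shares were 7.27% and 23.8%, and the median difference was -0.02 against 0.06 for the members, or -0.09 against -0.01 with median scaling. Without young LysM-Cre 1, 2 and 3 limma called 2, 5 and 1 member probes. Leaving out TAU/LysM 1 or 2 leaves a lone TAU/LysM array. Leaving out the low-Xist/Eif2s3y arrays leaves a lone array in both groups. Oligodendrocyte markers stood at 7.83 to 7.93 in TAU/LysM, with a median difference of -0.10 from young LysM-Cre and 0 of 17 probes called, and choroid plexus markers at a median of -0.26 with 0 of 11. Mural and meningeal markers had a median of 0.97 with 4 of 13 probes called higher, B cell markers a median of -0.55 with 4 of 9 called lower, and microglial markers a median of -0.35 with 7 of 14 called lower. The erythrocyte list had a median of 1.14 with 0 of 3 called. Of the border-associated macrophage list (median 0.42), Lyve1 was called, higher by 0.95 ± 0.23 (limma adjusted p = 0.0278). The part of these lists in the lysosomal differences was not tested.

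Against old LysM-Cre the same TAU/LysM arrays gave no called member, with 11 of 52 at an unadjusted p under 0.05 and shares of 2.26% and 15.6% over all probes. Npc2 read 12.68, 12.83 and 12.39 in old LysM-Cre and differed by 0.53 ± 0.17 (limma adjusted p = 0.126). Lipa, the acid lipase of cholesteryl esters, read 10.13, 10.09 and 10.43 against 10.66 and 11.09 and differed by 0.66 (limma adjusted p = 0.143). Gla was not well above background on any old LysM-Cre array and was on both TAU/LysM arrays, which gives at least a 1.41-fold higher level there (limma adjusted p = 0.179). Gusb probe 2 differed by 0.41 and Ctsc probe 1 by 0.35 (limma adjusted p = 0.197 and 0.203). Without TAU/LysM 1 limma called 2 member probes. The median member difference was 0.10, against -0.002 over all probes. Microglial markers had a median of -0.41 with 4 of 14 probes called lower, and border-associated macrophage markers 0.59 with 2 of 9 called higher, both of 1 gene. The monocyte and neutrophil lists had medians of -0.91 and -0.84, with 0 of 8 and 0 of 15 called. The oligodendrocyte list had a median of 0.06 with 0 of 17 called. The part of these lists in the lysosomal differences was not tested.

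The TAU differences could also be compared between genotypes on separate arrays. Over the 52 probes, 40 had the same sign in TAU against young SIRT1F/F as in TAU/LysM against young LysM-Cre (76.9%), and the Pearson correlation was 0.79. Over all 16344 probes the share was 72.9% and the correlation 0.60. Against the old groups 39 of 52 had the same sign, with a correlation of 0.59 (0.45 over all probes). These correlations are across probes, several of them of 1 gene, on arrays normalized together, and are descriptions. The member probes also had a smaller median standard error than all probes (0.126 and 0.163), and the part of this in the correlations was not tested. Glb1 was called in both genotypes against young samples, at 0.52 and 0.58. With no age given for the TAU groups, TAU and age cannot be told apart in these differences. Whether the differences were unequal between the genotypes was also tested. Limma called 0 member probes against young (1 of 52 at an unadjusted p under 0.05, with 0.306% and 7.75% over all probes) and 0 against old (1 of 52, with 0.202% and 7.24%). Against young the members of smallest p were Smpd1 probes 1, 2 and 3 at -0.39, -0.33 and -0.28, Gusb probe 2 at 0.35, Npc2 at 0.33 and Naglu at 0.22, and the limma adjusted p was at least 0.51. Gla also ranked among them but stood above background on only 1 of 3 young LysM-Cre arrays, so no size is given. Against old they were Ctso probe 1, with no size given since neither TAU array stood above background, Sgsh at -0.34, Smpd1 probe 1 at -0.30, Ids probe 3 at -0.61 and Naglu at -0.27, with a limma adjusted p of at least 0.589.

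**Figure D2:**
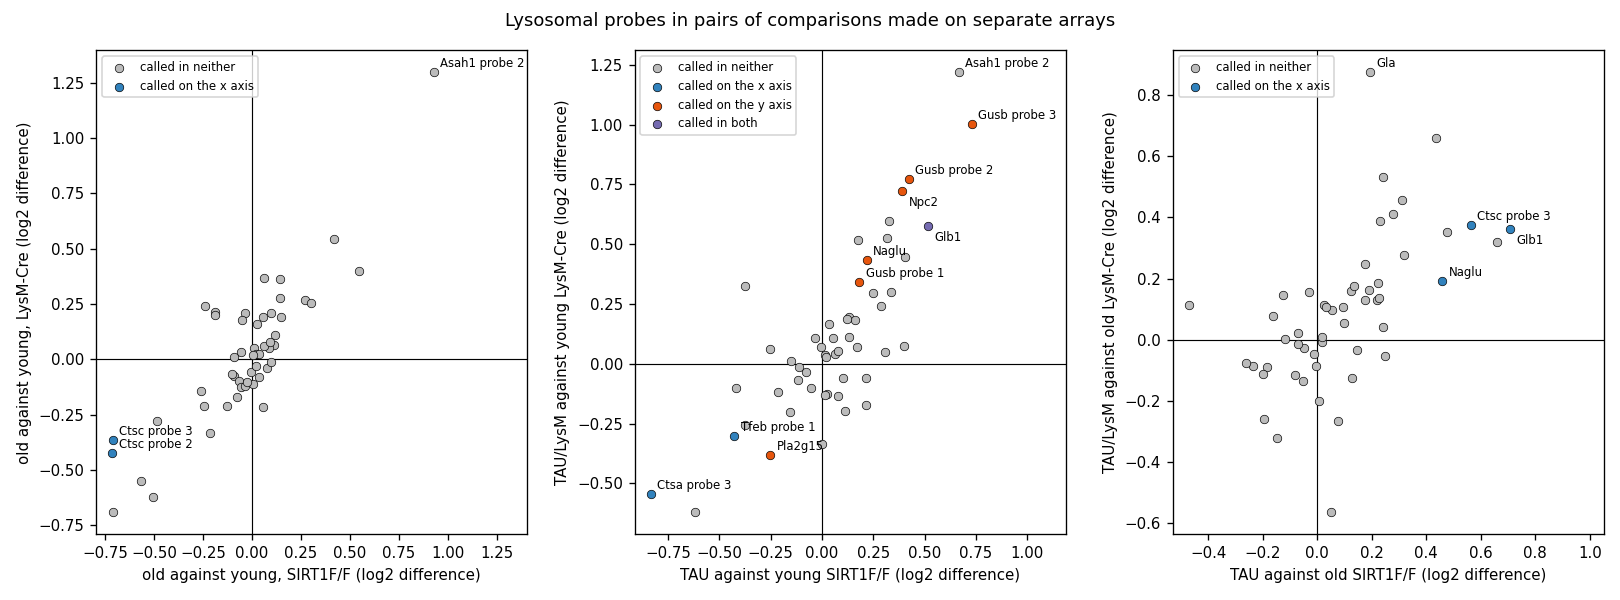
Log2 differences of the 52 tested lysosomal probes in 3 pairs of comparisons that share no array: SIRT1F/F (horizontal) against LysM-Cre (vertical) for old against young, and TAU against TAU/LysM set against young and against old. Points are probes, coloured by where limma called them; Ctsc probes 2 and 3 lay at -0.71 and Glb1 at 0.52 and 0.71 on the horizontal axes.

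With age, Ctsc was the only member called, on 2 of its 3 probes and in SIRT1F/F samples alone. The calls of probes 3 and 2 held in 3 and 1 of the 6 fits that left out 1 array. In SIRT1F/F samples its probe 3 read 13.03, 12.48 and 12.56 young and 11.96, 12.07 and 11.90 old, and all old arrays lay below all young ones. It fell by 0.71 ± 0.13 (limma adjusted p = 0.0184), a fold of 1.64. Probe 2 read 13.76, 13.32 and 13.41 young and 12.79, 13.09 and 12.46 old and fell by 0.71 ± 0.16 (limma adjusted p = 0.0451). Probe 1 read 14.32, 13.96 and 13.91 young and 13.59, 13.70 and 13.44 old, a difference of -0.48 ± 0.12 (limma adjusted p = 0.0641). In LysM-Cre samples the 3 probes differed by -0.28, -0.42 and -0.36, none called (limma adjusted p = 0.24, 0.193 and 0.174). There too every old array lay below every young one on each probe. The difference of the age effects was 0.35 ± 0.18 on probe 3 (limma adjusted p = 1.00).

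Other members differed with age without a call. Arsb, which removes sulfate from dermatan sulfate, read 13.63, 14.28 and 14.02 on probe 1 in young SIRT1F/F and 14.48, 14.52 and 14.57 in old, a difference of 0.55 ± 0.17 (limma adjusted p = 0.136), and 0.40 in LysM-Cre. Ctsa probes 3 and 4 differed by -0.71 and -0.50 in SIRT1F/F and by -0.69 and -0.62 in LysM-Cre, the smallest limma adjusted p being 0.135, while probes 1 and 2 differed by 0.10 to 0.21. Acp2 differed by -0.21 and -0.33. In SIRT1F/F, Naglu and Tfeb probe 1 each differed by -0.24 (limma adjusted p = 0.316 and 0.335). The Gusb probes differed by 0.21, 0.36 and 0.55 in LysM-Cre and by -0.04, 0.14 and 0.42 in SIRT1F/F. Asah1 probe 2 had the largest difference of any member, 0.93 and 1.30, with a standard error of 0.53 and a limma adjusted p of 0.455 and 0.226.

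In SIRT1F/F, 0 member probes were called higher and 2 lower with age, and 8 of 52 had an unadjusted p under 0.05, against 1.27% and 14.7% of all probes. In LysM-Cre 0 were called and 12 of 52 were under the unadjusted limit, against 1.71% and 17.4%. Of the 52 probes 39 had the same sign in both genotypes (75%, and 73.0% over all probes), with a correlation across probes of 0.85 (0.74 over all). Here too the median standard error was smaller for the members, 0.113 against 0.146 over all probes. No member's age effect was called different between genotypes, where 2 of 52 had an unadjusted p under 0.05 against 0% and 2.45% of all probes. Those were Naglu, with -0.24 in SIRT1F/F and 0.24 in LysM-Cre (difference 0.48 ± 0.15), and Sgsh (difference 0.39 ± 0.15). Glb1 at 0.41 and Gusb probe 1 at 0.25 came next, all at a limma adjusted p of 1.00.

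Limma called 0 member probes for age in SIRT1F/F without any 1 of the 3 old SIRT1F/F arrays, and 1, 2 and 1 without young SIRT1F/F 1, 2 and 3. Leaving out the low-Xist/Eif2s3y arrays leaves a lone old SIRT1F/F array. With the replicate number as a block it called 4 in SIRT1F/F and 2 in LysM-Cre, and without old LysM-Cre 3 it called 2 in LysM-Cre. Of other markers, the endothelial list had medians of 0.71 and 0.82 in SIRT1F/F and LysM-Cre, with 1 and 0 of 10 probes called higher. Neutrophil markers had medians of 0.45 and 0.40 with 0 of 15 called, and monocyte markers 0.62 and 0.61 with 0 of 8 called. The microglial list had medians of -0.04 and -0.07, with 0 and 1 of 14 probes called lower, and the B cell list had 1 and 2 of 9 called lower. Oligodendrocyte markers had 1 and 2 of 17 called higher, at medians of -0.05 and -0.06. Of the border-associated macrophage list, Ms4a7 fell by 0.81 in SIRT1F/F (limma adjusted p = 0.0194). The part of these lists in the Ctsc difference was not tested.

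**Figure D3:**
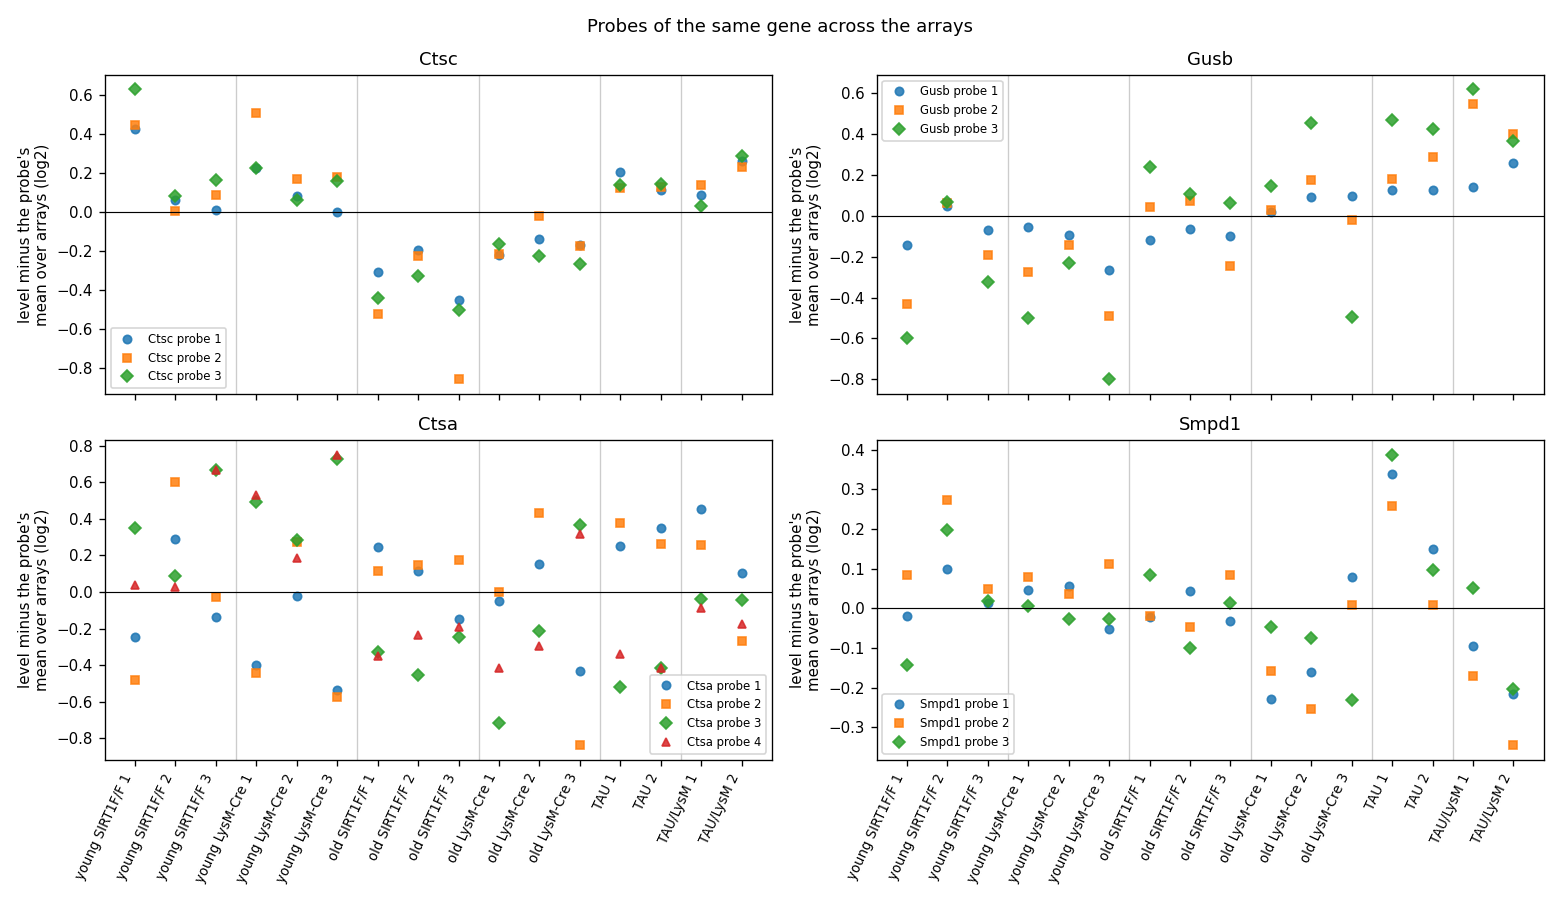
Level of each probe minus its own mean over the 16 arrays (log2, vertical axis) for Ctsc, Gusb, Ctsa and Smpd1 on every array (horizontal axis). The 3 Ctsc probes lay below their means on all 6 old arrays, the 3 Gusb probes above theirs on all 4 TAU and TAU/LysM arrays, and Ctsa probes 3 and 4 lay below their means on both TAU arrays, where probes 1 and 2 lay above theirs.

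LysM-Cre and SIRT1F/F samples did not differ in any called lysosomal probe. In young samples Naglu read 11.11, 11.29 and 11.26 in SIRT1F/F and 10.87, 11.13 and 10.90 in LysM-Cre, a difference of -0.25 ± 0.11 with a 95% interval of -0.48 to -0.02 (limma adjusted p = 0.626). Ids, a sulfatase of heparan and dermatan sulfate, read 12.50, 12.60 and 12.58 on probe 1 against 12.18, 12.46 and 12.30, also -0.25 ± 0.11. Its groups did not overlap, while those of Naglu did. Ctsh, Lamp1 and Neu1 followed by p, at 0.19, 0.14 and 0.19 (limma adjusted p = 0.633, 0.642 and 0.659). Limma called 0 of 52 member probes, with 2 at an unadjusted p under 0.05, against 0% and 7.94% of all probes.

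In old samples Sgsh, the sulfamidase of heparan sulfate, had the smallest p. It read 8.28, 8.06 and 8.27 in SIRT1F/F and 8.49, 8.63 and 8.75 in LysM-Cre, and every LysM-Cre array lay above every SIRT1F/F array. The difference was 0.42 ± 0.10 with a 95% interval of 0.20 to 0.64 (limma adjusted p = 0.592). Ctsc probe 2 differed by 0.40 ± 0.16 and Naglu by 0.23 ± 0.11 (limma adjusted p = 0.736 and 0.749). Naglu read 10.99, 10.80 and 11.15 against 11.17, 11.22 and 11.25, so its sign was opposite to that in young samples. Asah1 probe 1 differed by -0.20 and Ids probe 1 by -0.21. Limma called 0 of 52, with 3 at an unadjusted p under 0.05, against 0.0184% and 6.6% of all probes.

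Between TAU/LysM and TAU the acid sphingomyelinase gene Smpd1 came first, lower on all 3 probes. Probe 1 read 12.26 and 12.07 in TAU and 11.82 and 11.70 in TAU/LysM, a difference of -0.40 ± 0.12 (limma adjusted p = 0.133). Probe 2, at 10.30 and 10.05 against 9.87 and 9.70, differed by -0.39, and probe 3, at 9.88 and 9.59 against 9.55 and 9.29, by -0.32 (limma adjusted p = 0.174 and 0.347). The 2 groups did not overlap on any of them, but they hold 2 arrays each and the 3 probes read 1 gene on the same arrays. The share of all probes without overlap was not counted. Ids probe 1, at 12.47 and 12.35 against 12.08 and 12.14, differed by -0.30, and Neu1 and Tfeb probe 1 each by 0.28 (limma adjusted p = 0.394 and 0.409). Ctso probe 1 was not well above background on either TAU array and was on 1 of 2 TAU/LysM arrays, so no size is given (limma adjusted p = 0.278). Limma called 0 of 52 member probes, with 5 at an unadjusted p under 0.05, against 1.48% and 13.2% of all probes. Oligodendrocyte and choroid plexus markers had medians of -2.12 and -2.07 here, with 11 of 17 and 10 of 11 probes called lower, and their part was not tested.

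**Figure D4:**
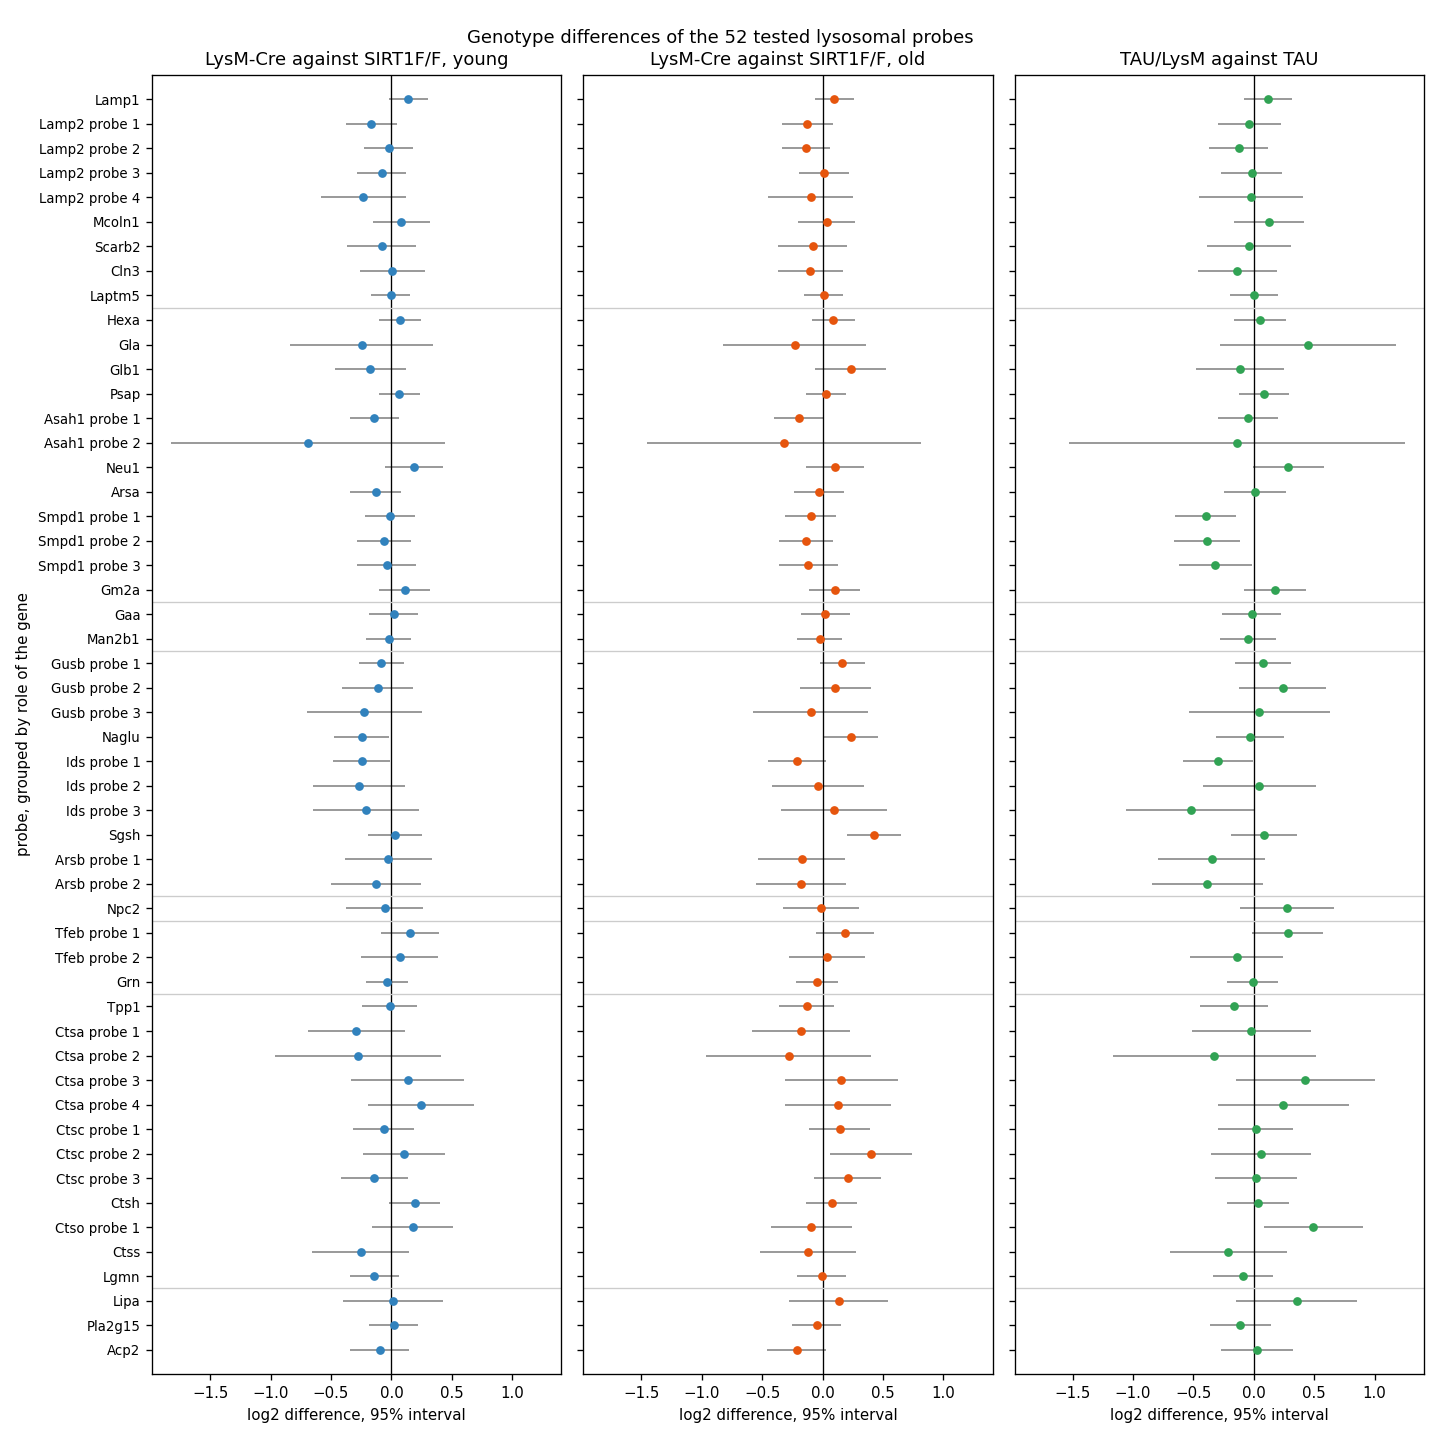
Log2 difference of each tested lysosomal probe (rows, grouped by the role of the gene) between LysM-Cre and SIRT1F/F in young and old samples and between TAU/LysM and TAU, with its 95% interval from the limma fit. No probe was called; Sgsh in old samples (0.42) and Smpd1 probe 1 in TAU samples (-0.40) had the smallest p of their panels.

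Taking the mean of the young, old and TAU genotype differences narrowed the errors and gave no called member. Ids probe 1 had the smallest p, -0.25 ± 0.07 (limma adjusted p = 0.0777), made of -0.25, -0.21 and -0.30. Smpd1 probe 2 averaged -0.20, Tfeb probe 1 averaged 0.20, Smpd1 probe 1 averaged -0.17 and Neu1 averaged 0.19 (limma adjusted p = 0.126, 0.139, 0.151 and 0.161). Sgsh averaged 0.18. The 95% interval was -0.40 to -0.10 for Ids probe 1 and 0.05 to 0.35 for Tfeb probe 1. Limma called 0 of 52, with 9 at an unadjusted p under 0.05, against 1.22% and 19.9% of all probes. With the deposited log2 values, which had no background correction, and with a trended and robust variance it called 1. In the same averaged effect the monocyte list had a median of 0.83 with 2 of 8 probes called higher, and the B cell list 0.40 with 4 of 9 called higher. The oligodendrocyte list had a median of -0.71 with 10 of 17 called lower. The neutrophil list had a median of 0.65 with 0 of 15 called and the microglial list -0.17 with 0 of 14. Their part was not tested.

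The rest of the lysosomal machinery was read from lists beside the members, with the same tests. Limma called 11.9% of all probes in TAU against young SIRT1F/F and 3.99% against old SIRT1F/F. The shares in TAU/LysM against young and old LysM-Cre were 7.27% and 2.26%. The lists were not tested against these shares. Of 27 probes for 20 other lysosomal hydrolases, 3 were called higher and 1 lower in TAU against young SIRT1F/F. Ctsd, the main aspartic protease, differed by 0.55 ± 0.15 (limma adjusted p = 0.0338) and by 0.75 in TAU/LysM against young LysM-Cre (limma adjusted p = 0.0128). Cpq, a carboxypeptidase, differed by 0.46 and 0.72 (limma adjusted p = 0.0428 and 0.00807), Ctsk by 0.80 and Ctsl, another cysteine cathepsin, by -0.70 in the first of these comparisons. Of 32 probes for other membrane proteins 3 were called higher and 4 lower in TAU against young SIRT1F/F. The tetraspanin Cd63 rose by 0.64, 0.93 and 0.67 on its 3 called probes there and by 1.04, 0.85 and 0.48 in TAU/LysM against young LysM-Cre. The amino acid sensor Slc38a9 fell by 0.84 and 1.03 on its probes in TAU and by 0.53 on 1 in TAU/LysM against young LysM-Cre. Slc29a3, a nucleoside transporter, fell by 0.45 and 0.49 in these comparisons, and Mfsd8, lost in a form of Batten disease, fell by 0.41 in TAU.

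Subunits of the proton pump that acidifies the lysosome had 1 of 22 probes called in TAU against young SIRT1F/F, against 11.9% of all probes. That probe was of Atp6v1a, at 0.72 ± 0.19 (limma adjusted p = 0.0266). It differed by 1.05 in TAU/LysM against young LysM-Cre and by 0.92 against old LysM-Cre (limma adjusted p = 0.00591 and 0.0229). Atp6v1b2, another subunit, rose by 0.34 in TAU against old SIRT1F/F (limma adjusted p = 0.0379). In the sorting list, Igf2r, the large mannose 6-phosphate receptor, rose by 0.82 and 0.51 on its called probes in TAU against young SIRT1F/F and by 0.72 on 1 against old SIRT1F/F. Gnptab, which makes the mannose 6-phosphate tag, rose by 0.53 and 0.73 in TAU/LysM against young and old LysM-Cre, and Sort1, sortilin, fell by 0.46, 0.41 and 0.57 on 3 probes and by 0.48 and 0.47 on 2. Sort1 also fell by 0.36 in TAU against young SIRT1F/F, as did Gga3, a sorting adaptor, by 0.66. Of the mTORC1 machinery, the Rag GTPase gene Rragd rose by 1.06, 1.20, 0.90 and 1.12 in TAU against young and old SIRT1F/F and in TAU/LysM against young and old LysM-Cre, in that order. Rragb was called higher in TAU than in young SIRT1F/F (limma adjusted p = 0.00845). Flcn, a regulator of that GTPase, fell by 0.50 and 0.42 in TAU and by 0.51 in TAU/LysM against the young groups, and the autophagy gene Uvrag fell by 0.37 in TAU against young SIRT1F/F. With age, and between genotypes, limma called 1 probe in these 6 lists, the autophagy tether gene Vps39, which fell by 0.74 in LysM-Cre (limma adjusted p = 0.0307). The TAU comparisons share arrays in pairs.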

How the data were processed

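Gene expression was measured on 16 Illumina arrays. The authors deposited probe intensity values, by their range not background subtracted, and a table of log2 values that equals quantile-normalized log2 intensity; the scanner software is not given in the sources used here. Array columns were matched to samples by title. Probes were named through the platform annotation given with the series (23978 with 1 symbol, 1719 with none). Intensities were corrected with limma's normexp (offset 16) on all probes, then log2 transformed, then quantile normalized. Background was each array's mode, and a probe above its upper 0.05 tail (1.64 spreads) counted as above background.

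All 13 comparisons were contrasts from a single model of the 6 groups in limma 3.58.1 under R 4.3.3 (residual degrees of freedom 10, prior 3.68), with Benjamini-Hochberg adjustment over all tested probes and calls at an adjusted p under 0.05. Values are log2 differences ± SE. Where all arrays of a group were not well above background, "at least N-fold" sets the brighter mean against the lowest signal above background. Deviations from group means of like-numbered SIRT1F/F and LysM-Cre arrays correlated at 0.35, 0.51 and 0.24 in young samples and 0.07, 0.05 and 0.05 in old. Between young and old arrays they correlated at -0.02, 0.40 and 0.34 in LysM-Cre and 0.09, 0.03 and 0.14 in SIRT1F/F. The labels do not say what a replicate number shares. With the replicate block 0 members were called between genotypes in young samples, as without it. Arrays of a group correlated at 0.984 to 0.994. Every member is accounted for, and the text names each called member and the 5 genes and 5 probes of smallest p per comparison; of the other lysosomal lists it names the called genes, and the rule's uncalled ones are given for age and the averaged genotype effect. Members and gene lists were chosen with earlier results of these data known. The scripts were tested on simulated data in which 200 of 16344 probes were changed. A log2 change of 0.5 was called for 4.5% of the changed probes in TAU against young SIRT1F/F and for 7.5% with age in SIRT1F/F. For a change of 1 these shares were 80% and 88.5%, and for 2 they were 99% and 99.5%. In that setting most changes of 0.5 went uncalled. These shares need not hold for the data, where limma called 1953 of 16344 probes in TAU against young SIRT1F/F and 207 with age in SIRT1F/F.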

Additional observations from a re-analysis of the deposited data

How the results depend on the processing

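Of 78 member results (the called probes and the 5 genes and 5 probes of smallest p per comparison), 15 were called. Under the alternatives, those were recomputed 251 times: 132 kept the call, 119 lost it and 0 reversed. Over 1216 alternatives of the others, 40 were newly called and 0 reversed. The 0 called members in the young, old and TAU genotype comparisons and in the 3 tests of a difference between effects held under every alternative run. With TAU against old SIRT1F/F (3 called), limma called 5 members each with offset 50, the deposited log2 values and cyclic loess. Using only probes above background on all arrays, or a trended and robust variance, also gave 5, and array weights gave 6. Limma called 1 without a filter on dim probes, 1 with the replicate block, and 0 with median scaling. For TAU against young SIRT1F/F (3) it called 5 with median scaling, 8 with array weights and 0 without the filter. It called 0 with only the arrays compared, and 1 without the low-Xist/Eif2s3y arrays, none of which is in these groups. For TAU/LysM against young LysM-Cre (7) it called 4 with median scaling, 2 without the filter, and 0 with only the arrays compared. For age in SIRT1F/F (2) it called 1 without the filter or with array weights and 4 with the replicate block. It called 0 with 1 probe per gene or with only the arrays compared. Without the low-Xist/Eif2s3y arrays a lone array stays in young LysM-Cre, old SIRT1F/F and TAU/LysM, so counts of calls that need those groups are left out. For age in LysM-Cre (0) it called 2 with array weights and 2 with the replicate block, and for the averaged genotype effect (0) 1 with the deposited values or a trended and robust variance. Leaving out 1 array in turn gave 0 to 2 for age in SIRT1F/F, 0 to 2 in LysM-Cre, 0 to 6 and 0 to 1 for TAU against young and old, and 0 to 5 and 0 to 2 for TAU/LysM against young and old. The replicate block changed no other count by over 1.5 times. Fewer arrays or probes entered the fits without arrays, with only the arrays compared, or with 1 probe per gene; otherwise the cause was not tested. Under median scaling all probes had a median of -0.11 (age, SIRT1F/F) and -0.16 (TAU against young). Probes near the ceiling or at background (such as Laptm5, Psap, Lgmn, Gla, Ctso and Tfeb probe 2) limit what these arrays can show.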

Other observations

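Among other lysosomal genes limma called no member for the averaged genotype effect or for age in SIRT1F/F and 1 Vps39 probe for age in LysM-Cre. For the averaged LysM-Cre effect the genes of smallest p were Idua (0.19) and Ctsk (0.28) among hydrolases, Tpcn2 (0.24) and Sidt2 (0.36) among membrane proteins, Atp6ap2 (-0.15) and Atp6v1b2 (0.11) in the proton pump, Gga3 (0.39) and Sort1 (-0.19) in sorting, Tsc1 (0.22) and Tfe3 (0.18) in the mTORC1 list, and Ulk1 (0.39 and 0.33) in autophagy. None was called by limma (adjusted p from 0.0876 for Gga3 to 0.254 for Tfe3).

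With age in SIRT1F/F the aspartic protease Ctse differed by 2.55 (limma adjusted p = 0.12), Galns by -0.53, Slc38a9 by -0.40 and -0.36, Atp6ap2 by 0.47 and 0.57, Gnptg by 0.21, Gga1 by -0.34, Rragb by 0.81 (limma adjusted p = 0.0509), Flcn by -0.30 and Vps39 by -0.61 and -0.54. In LysM-Cre Ppt2 differed by -0.37, Ctsk by 0.63, the chloride transporter Clcn7 by -0.40 (limma adjusted p = 0.0649), Slc38a9 by -0.42, Atp6ap2 by 0.92 and 0.85, Ap1b1 by -0.26, Igf2r by 0.24, Rragb by 0.57, Tsc1 by -0.38 and the second Vps39 probe by -0.67 (limma adjusted p = 0.0514).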
